A study of Mus musculus with 5 samples.

Results

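The mevalonate pathway turns acetyl-CoA into the building blocks of cholesterol and of all other isoprenoids. The 7 genes described here are Acat2, Hmgcs1, Mvk, Pmvk, Mvd, Idi1 and Fdps, taken in the order of their reactions out of 21887 protein-coding genes of the RefSeq annotation (GRCm38.p6, the coordinates of mm10). They were given by name, and every deposited peak in a gene body or up to 3000 bp outside it was collected, which gave 29 peaks. The peaks come from CUT&RUN, in which an antibody guides a nuclease that cuts out the DNA around its target, on dissociated cells of whole male gonads of fetal mice. Peak lists were available for CREB, a transcription factor activated by cAMP signalling, at stage E13.5, then E16.5, then E18.5 of embryonic development. A further list, from E18.5, is for H3K4, a histone residue whose methylation state the labels do not name. Each list came from 1 library of unsorted gonadal cells, so no value has a replicate check and no cell type can be assigned to a peak. The labels give no strain and no treatment, and an IgG library of the series was not analysed here.

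Acat2 encodes the cytosolic thiolase that joins acetyl-CoA units, and Hmgcs1 the synthase that makes HMG-CoA. Mvk and Pmvk encode the kinases that phosphorylate mevalonate in succession, and Mvd the decarboxylase that makes isopentenyl pyrophosphate. Idi1 encodes the isomerase of that product, and Fdps the synthase of farnesyl pyrophosphate, the branch point to squalene, dolichol, ubiquinone and protein prenylation. In the fetal testis cholesterol is the precursor of the androgens made by Leydig cells. Genes of this pathway are known targets of SREBP2, the sterol-regulated transcription factor that binds sterol response elements, often beside NF-Y and Sp1 sites.

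The CREB lists held 862 peaks (E13.5), 3528 (E16.5) and 2957 (E18.5), H3K4 had 21211, and all lists gave positions without scores or read counts. Within each list nearly every peak had the same width: 150 bp (E13.5), 630 bp (E16.5) and 160 bp (E18.5) for CREB, and 210 bp for H3K4. The read depth is unknown, so a gene without a listed peak may still be bound, and peak strength could not be compared. The annotation used gives no exons, so peaks were placed only against gene ends and start sites.

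The DNA under the CREB peaks is shown first for the 4 members whose E18.5 peak reached the 300 bp window around the annotated start, from 250 bases before it to 50 after. Each line runs 5′ to 3′ along the gene (RefSeq, GRCm38.p6), and capitals mark the bases inside the E18.5 CREB peak. The windows are chr13:119690101-119690400 (plus strand) for Hmgcs1, chr5:114444019-114444318 (plus) for Mvk, chr8:122443373-122443672 (minus) for Mvd and chr13:8885356-8885655 (plus) for Idi1.
Hmgcs1: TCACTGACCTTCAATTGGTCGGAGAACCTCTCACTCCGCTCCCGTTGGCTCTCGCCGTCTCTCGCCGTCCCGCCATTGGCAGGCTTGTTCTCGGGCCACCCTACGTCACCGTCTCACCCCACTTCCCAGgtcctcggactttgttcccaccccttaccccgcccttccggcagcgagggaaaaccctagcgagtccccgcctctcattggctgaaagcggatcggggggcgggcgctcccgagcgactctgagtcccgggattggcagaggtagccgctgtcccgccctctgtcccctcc
Mvk: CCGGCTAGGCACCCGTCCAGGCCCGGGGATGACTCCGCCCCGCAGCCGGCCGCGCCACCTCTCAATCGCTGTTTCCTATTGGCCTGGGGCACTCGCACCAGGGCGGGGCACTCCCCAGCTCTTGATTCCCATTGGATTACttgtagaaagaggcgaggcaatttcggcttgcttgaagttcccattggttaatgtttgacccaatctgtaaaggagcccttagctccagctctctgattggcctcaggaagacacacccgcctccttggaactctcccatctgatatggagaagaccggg
Mvd: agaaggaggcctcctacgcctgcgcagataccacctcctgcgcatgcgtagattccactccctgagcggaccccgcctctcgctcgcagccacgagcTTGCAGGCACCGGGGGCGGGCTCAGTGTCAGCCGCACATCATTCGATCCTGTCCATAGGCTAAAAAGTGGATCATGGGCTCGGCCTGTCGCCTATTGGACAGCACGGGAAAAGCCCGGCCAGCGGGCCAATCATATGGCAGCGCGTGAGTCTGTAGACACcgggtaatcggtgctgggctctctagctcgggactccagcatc
Idi1: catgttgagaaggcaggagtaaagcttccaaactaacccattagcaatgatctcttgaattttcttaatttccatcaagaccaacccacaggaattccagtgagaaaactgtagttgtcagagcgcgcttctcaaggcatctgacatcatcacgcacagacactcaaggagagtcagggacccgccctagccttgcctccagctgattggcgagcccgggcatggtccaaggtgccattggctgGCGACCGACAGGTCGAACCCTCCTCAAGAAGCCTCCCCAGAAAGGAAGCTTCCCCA
The peak covered 129 bases of the window at Hmgcs1, 140 at Mvk, 160 at Mvd and 56 at Idi1. At Hmgcs1 and Mvk the capitals lie in the far upstream part of the window, at Mvd they run up to and past the start, and at Idi1 they are the last bases, from just before the start onwards.

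The window of the second annotated start of Pmvk, chr3:89459321-89459620 (plus strand), is shown because this start lies inside the gene and next to its CREB peaks. No CREB peak reached this window, and capitals mark the bases inside the E18.5 H3K4 peak, which covered 210 of them.
Pmvk: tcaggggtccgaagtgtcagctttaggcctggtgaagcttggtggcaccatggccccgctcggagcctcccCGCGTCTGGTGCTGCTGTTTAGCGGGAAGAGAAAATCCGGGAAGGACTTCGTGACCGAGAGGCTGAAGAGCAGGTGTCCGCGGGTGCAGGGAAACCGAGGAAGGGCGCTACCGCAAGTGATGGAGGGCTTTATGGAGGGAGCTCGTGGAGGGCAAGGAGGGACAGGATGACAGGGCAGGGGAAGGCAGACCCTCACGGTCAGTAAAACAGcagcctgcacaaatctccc

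CREB peaks were listed at 3 of the 7 genes in E13.5 gonads, at 6 in E16.5 gonads and at 6 in E18.5 gonads. By the same rule 4.82% of protein-coding genes had a peak in E13.5 gonads, 18.3% in E16.5 gonads and 15.6% in E18.5 gonads. Hmgcs1, Pmvk and Idi1 had a CREB peak at all 3 stages, which 4.66% of protein-coding genes had. Mvk, Mvd and Fdps had one at E16.5 and E18.5 and none at E13.5. Acat2, the first gene of the pathway, had none at any stage. H3K4 peaks were listed at all 7 genes, against 63.1% of protein-coding genes. The 4991 protein-coding genes with lengths between those of the shortest and the longest member, 6791 and 17910 bp, had CREB peaks in 6.37%, 21.5% and 18.6% of cases from E13.5 to E18.5 and H3K4 peaks in 64.6%.

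Each gene with CREB had a single CREB peak per list, 15 in all. Counted only within 1000 bp of an outer gene end, CREB peaks were at 2 members in the earliest list, 5 in the E16.5 list and 5 in the latest, and H3K4 peaks at 6. The same rule gave 3.94%, 14.9% and 12.9% of protein-coding genes for the CREB lists and 52.7% for H3K4. The member lost by this rule is Pmvk at every stage and in the H3K4 list, because its peaks lie inside the gene.

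**Figure D1:**
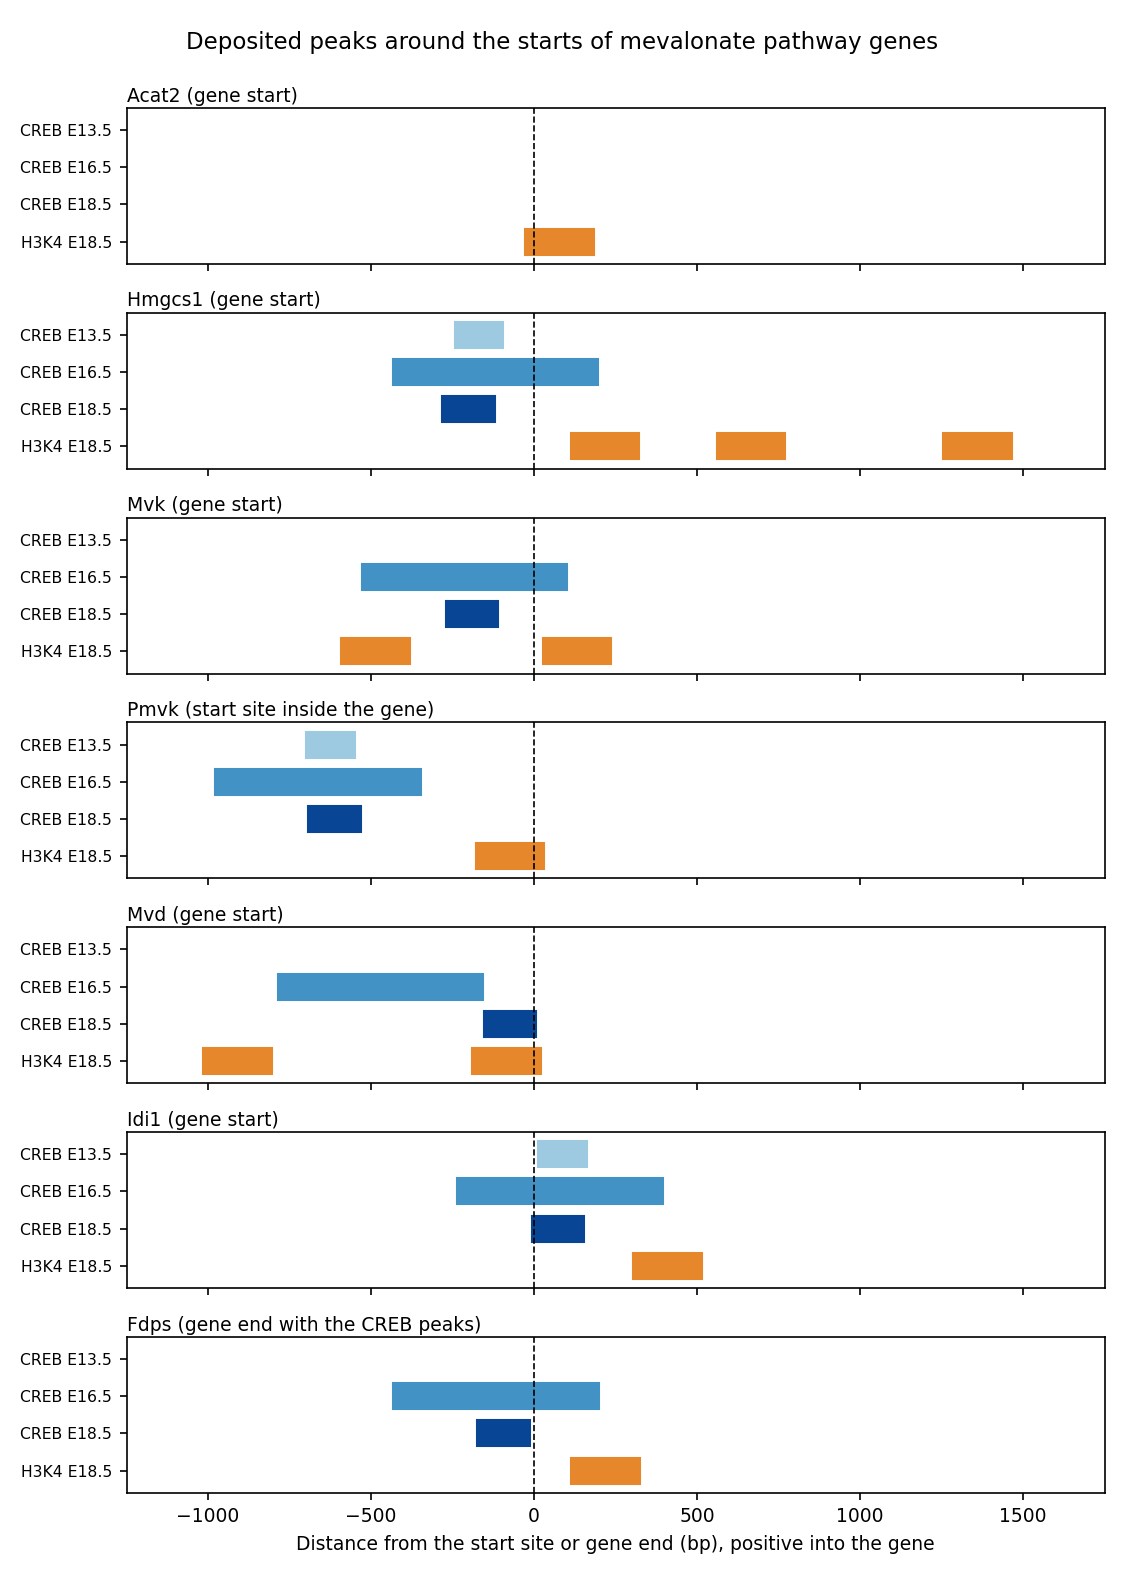
Deposited peaks around each gene, drawn to scale as boxes, with 1 row per list and the distance in bp from the annotated start on the x axis (for Pmvk the start inside the gene, for Fdps the outer end with the CREB peaks). CREB boxes lie within 663 bp of the dashed line by their midpoints at 6 genes and are missing at Acat2; 3 H3K4 peaks near the far ends of Acat2, Mvd and Fdps fall outside the range drawn.

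Acat2 lies on chromosome 17, 12943042 to 12960725, on the minus strand. Its 2 H3K4 peaks were at chromosome 17, 12960542 to 12960751, with the midpoint 78 bp downstream of the start, and at 12940576 to 12940785, beyond the 3′ end. The peak at the start stood in row 3968 of 21211, a row being the peak's line in its list, and the other in row 16404. The second one overlapped the end of Acat3, an annotated paralog next to Acat2, and the pseudogene Gm20591; how reads matching both paralogs were placed is not given in the sources used here. The nearest CREB peaks were 26454 bp (E16.5) and 26702 bp (E18.5) away from Acat2, measured from the peak edge. They lay nearest to Mrpl18, a mitochondrial ribosomal protein gene. The E18.5 peak lay within the span of the wider E16.5 peak, so these distances do not show different places. At E13.5 the nearest one was 4413555 bp away, also from its edge.

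Hmgcs1 lies on chromosome 13, 119690351 to 119708260, and starts at its lower coordinate. Its CREB peaks were at 119690107 to 119690256 (E13.5, row 518 of 862), 119689917 to 119690546 (E16.5, row 346 of 3528) and 119690070 to 119690229 (E18.5, row 413 of 2957). Their midpoints lay 169, 119 and 201 bp upstream of the start. All 3 peaks overlapped each other, with midpoints 32 to 82 bp apart. Hmgcs1 had 3 H3K4 peaks, with midpoints 217, 665 and 1360 bp downstream of the start, so that CREB and H3K4 midpoints stood on opposite sides of it. The E16.5 peak spanned the start and overlapped the nearest H3K4 peak by 84 bp, and the other CREB peaks overlapped none.

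Mvk lies on chromosome 5, 114444264 to 114460591, and shares its upstream region with Mmab, which encodes the adenosyltransferase of the cobalamin pathway. The 2 genes run in opposite directions, and their annotated starts are 242 bp apart. The CREB peaks were at 114443740 to 114444369 at E16.5 (row 443) and 114443999 to 114444158 at E18.5 (row 737). Their midpoints lay 214 and 190 bp upstream of the Mvk start, and 28 and 52 bp upstream of the Mmab start. Both midpoints were thus nearer to Mmab, and these lists do not assign the peak to either gene. The H3K4 peaks stood 1 on each side, with midpoints 132 bp downstream of the Mvk start (row 237) and 245 bp downstream of the Mmab start (row 13758).

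Pmvk lies on chromosome 3, 89454541 to 89469014, and its CREB peaks were inside the gene. They were at 89458872 to 89459021 (E13.5), 89458593 to 89459222 (E16.5) and 89458879 to 89459038 (E18.5). From the outer start the midpoints lay 4406, 4367 and 4418 bp into the gene. The promoter table holds a second start, at 89459571, which is 5030 bp downstream of the outer one. Measured from it, the CREB midpoints lay 624, 663 and 612 bp upstream. The only H3K4 peak of Pmvk, at 89459392 to 89459601, spanned this second start, with its midpoint 74 bp upstream of it. No peak of the 4 lists lay within 1000 bp of the outer start.

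Among the 7 genes Pmvk had the earliest CREB rows in every list, row 22 of 862, row 10 of 3528 and row 72 of 2957. In the annotation 3042 protein-coding genes have a start at least 1000 bp inside both gene ends. CREB midpoints lay within 1000 bp of such a start in 2.7% (E13.5), 10.7% (E16.5) and 8.65% (E18.5) of these genes. Pmvk belongs to the 65, 230 and 199 genes with CREB at an inner start and none at an outer end.

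Mvd lies on chromosome 8, 122433596 to 122443422, on the minus strand, and is the member whose CREB peaks differ in place between stages. The E16.5 peak was at 122443578 to 122444207 (row 2094), with its midpoint 471 bp upstream of the start. The E18.5 peak was at 122443416 to 122443575 (row 1158), with its midpoint 74 bp upstream. The peaks did not overlap, with 2 bp between their edges and 397 bp between their midpoints, although the E16.5 peak is the wider. The E16.5 midpoint lay inside 9330133O14Rik, a long noncoding RNA gene that lies upstream of Mvd. The E18.5 CREB peak lay wholly within an H3K4 peak (122443402 to 122443611), with midpoints 11 bp apart. A second H3K4 peak was 909 bp upstream of the start, and another, 1080 bp beyond the 3′ end, lay inside Cyba, which encodes a subunit of the NADPH oxidase.

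Idi1 lies on chromosome 13, 8885606 to 8892396, and had its CREB midpoints just downstream of the start. The peaks were at 8885617 to 8885766 (E13.5, row 94), 8885370 to 8885999 (E16.5, row 77) and 8885600 to 8885759 (E18.5, row 275). Idi1 was the member with the smallest shifts between stages, with midpoints 5 to 12 bp apart. Its H3K4 peak, at 8885910 to 8886119, had its midpoint 409 bp downstream of the start.

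Fdps lies on chromosome 3, 89093588 to 89101967, and its CREB peaks were at the end with the higher coordinate; the tables used give no strand for it. The peaks were at 89101769 to 89102398 at E16.5 (row 2468) and 89101981 to 89102140 at E18.5 (row 1323). Their midpoints lay 117 and 94 bp outside the gene, 23 bp apart. An H3K4 peak was inside the same end, 219 bp from it (row 1053). The other H3K4 peak, 2583 bp outside the opposite end, lay inside the neighbouring gene Rusc1.

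**Figure D2:**
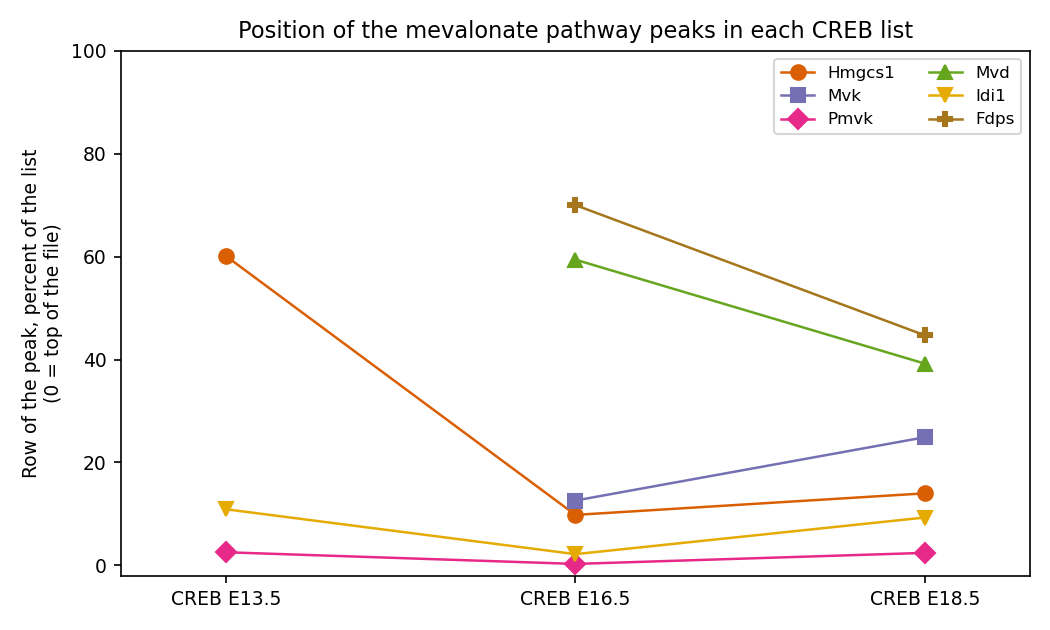
Row of each gene's CREB peak as a percentage of the peaks in that list, for the 3 stages in order; each point is 1 peak and lines join the peaks of 1 gene. Pmvk stays below 3% in every list, and Mvd and Fdps lie between 39.2% and 70.0%.

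The genes with CREB at E13.5 had earlier rows in the later lists than those without. At E16.5 Pmvk, Idi1 and Hmgcs1 stood in rows 10, 77 and 346, and Mvk, Mvd and Fdps in rows 443, 2094 and 2468. At E18.5 Pmvk, Idi1 and Hmgcs1 had rows 72, 275 and 413, and Mvk, Mvd and Fdps had rows 737, 1158 and 1323, so the sets did not overlap in either list. Over all peaks those that overlapped an E13.5 peak also had earlier rows, with a median row of 447 at E16.5 and 451 at E18.5, against 2141 and 1842 for the rest. They were 22.1% of the E16.5 list and 26.3% of the E18.5 list. Mvk, with no E13.5 peak, stood at row 443 of the E16.5 list, before their median row of 447. How often such sets of genes stay apart over the whole lists was not counted. The sources used here do not say what sets the row order. When only the first 862 peaks of each list were counted, as many as E13.5 holds, 4 genes had a peak in the E16.5 list and 4 in the E18.5 list, against 5.28% and 5.16% of protein-coding genes. Mvd and Fdps were then not among them in either list.

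Across stages, 11 of 12 pairs of peaks at the same gene overlapped, with midpoints 5 to 82 bp apart, and the pair at Mvd did not. Over all protein-coding genes 83.8% of such pairs overlapped, with every pair counted at a gene with several peaks. Of protein-coding genes with a peak at both stages, 98.7% shared an overlapping peak between E13.5 and E16.5, 95.8% between E13.5 and E18.5, and 98.0% between the later stages. At the mevalonate genes these shares were 3 of 3, 3 of 3 and 5 of 6, and the gene without one was Mvd. With every peak set to 150 bp the same number of genes shared a peak in each pair of stages, 3 between E13.5 and E16.5, 3 between E13.5 and E18.5, and 5 between the later stages.

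An H3K4 midpoint lay within 1000 bp of every CREB midpoint at these genes, at 3 of 3 genes (E13.5), 6 of 6 (E16.5) and 6 of 6 (E18.5). Over all CREB peaks the share was 90.9%, 85.9% and 88.3% in this order. At E18.5, the stage both antibodies share, the nearest H3K4 midpoint was 418 bp away at Hmgcs1, 297 bp at Mvk, 538 bp at Pmvk, 11 bp at Mvd, 335 bp at Idi1 and 313 bp at Fdps. It stood toward the gene body at 4 of these 6 genes, the exceptions being Mvk, where it lay inside Mmab, and Mvd. At Fdps, which has no strand here, the direction was taken from the end with the CREB peaks into the gene. Over the 2070 genes with 1 annotated start, a CREB midpoint within 1000 bp of it and H3K4 at E18.5, it stood toward the gene body in 58.6%. Pmvk, with 2 annotated starts, and Fdps, with none in the promoter table, are outside that set. Of the members inside it, Hmgcs1 and Idi1 had H3K4 toward the gene body, and Mvk and Mvd did not. Direct overlap with an H3K4 peak at E18.5 was found at Mvd alone, against 33.1% of all CREB peaks of that list.

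Sequence motifs were searched on both strands of the 7 promoter windows of the 6 genes that the promoter table holds, and Fdps is not among them. The full cAMP response element, TGACGTCA, was in none of the 7 windows and in 1.79% of all 32851 windows of the table, where windows of neighbouring starts can overlap. Its core of 5 bases, TGACG, or CGTCA when read on the other strand, is part of the full element on both strands. This core was in 1 window, that of Hmgcs1, against 20.8% of all windows. Among the 2569 windows that an E18.5 CREB peak touches, the core was in 62.2% and the full element in 10.3%. The Mvk, Mvd and Idi1 windows, which the E18.5 CREB peak also touched, held no such core. This says only that these letters are not in those windows, and at Idi1 most of the E18.5 peak lies outside the window. No CREB peak of any stage reached the windows of Acat2 and Pmvk. The DNA under the CREB peaks of Pmvk and Fdps was not searched, so whether it holds the element is not known here.

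In the Hmgcs1 window printed above, the CRE core read as CGTCA at bases 104 to 108, beginning 147 bp upstream of the start. It lay inside the CREB peak of every stage, 24 bp (E13.5), 26 bp (E16.5) and 56 bp (E18.5) from the midpoints. A match to the centre of the sterol response element, TCACNCCAC, or GTGGNGTGA when read on the other strand, followed at bases 114 to 122, also inside all 3 peaks. That match was in 1 of the 7 windows and in 1.24% of all windows, and in 0.584% of those touched by an E18.5 CREB peak.

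NF-Y boxes, which read CCAAT, or ATTGG when they lie on the other strand, were in 5 of the 7 windows, those of Hmgcs1, Mvk, Mvd and Idi1 and the outer one of Pmvk, against 37.4% of all windows. Within the E18.5 CREB peak lay 2 of them at Hmgcs1, 2 at Mvk, 2 at Mvd and none at Idi1. GC boxes bound by Sp1, which read GGGCGG, or CCGCCC when they lie on the other strand, were in 5 windows, those of Acat2, Hmgcs1, Mvk, Mvd and Idi1, against 35.7% of all windows. The window of the inner Pmvk start held none of the motifs searched. The windows with CREB at E18.5 held an NF-Y box in 55% and a GC box in 74% of cases over the whole table.

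Around the pathway, CREB peaks were also listed at genes that use its products. Of 14 genes of isoprenoid use, CREB peaks lay within 1000 bp of a gene end at 2 in E13.5 gonads, 5 in E16.5 gonads and 5 in E18.5 gonads. Of 13 genes from squalene to cholesterol the counts were 2, 4 and 6, and of 14 genes of sterol sensing and uptake 2, 5 and 6. The mevalonate genes had 2, 5 and 5 of 7 by the same rule, and these small lists were not tested against each other. Over all protein-coding genes the shares by this rule are the 3.94%, 14.9% and 12.9% given above. The genes with a peak at all 3 stages were Ggps1 and Dhdds of isoprenoid use, Hsd17b7 and Dhcr7 of sterol synthesis, and Srebf2 and Nr1h2 of sterol sensing. Hsd17b7 and Dhcr7 encode reductases of the late steps of cholesterol synthesis, and Nr1h2 encodes an oxysterol receptor. Ggps1 and Dhdds encode prenyltransferases that extend farnesyl pyrophosphate. At E18.5 their CREB midpoints lay 73 and 86 bp upstream of the start (rows 210 and 866), with H3K4 midpoints 549 and 182 bp downstream. Srebf2, which encodes SREBP2, stood in rows 177 (E13.5), 83 (E16.5) and 138 (E18.5). Hsd17b7 stood in rows 352, 481 and 98 in the same order. Dhcr7 had rows 140, 2145 and 2085, and Nr1h2 rows 670, 616 and 2232. The genes with a peak at all 3 stages thus did not all have early rows in the later lists.

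**Figure D3:**
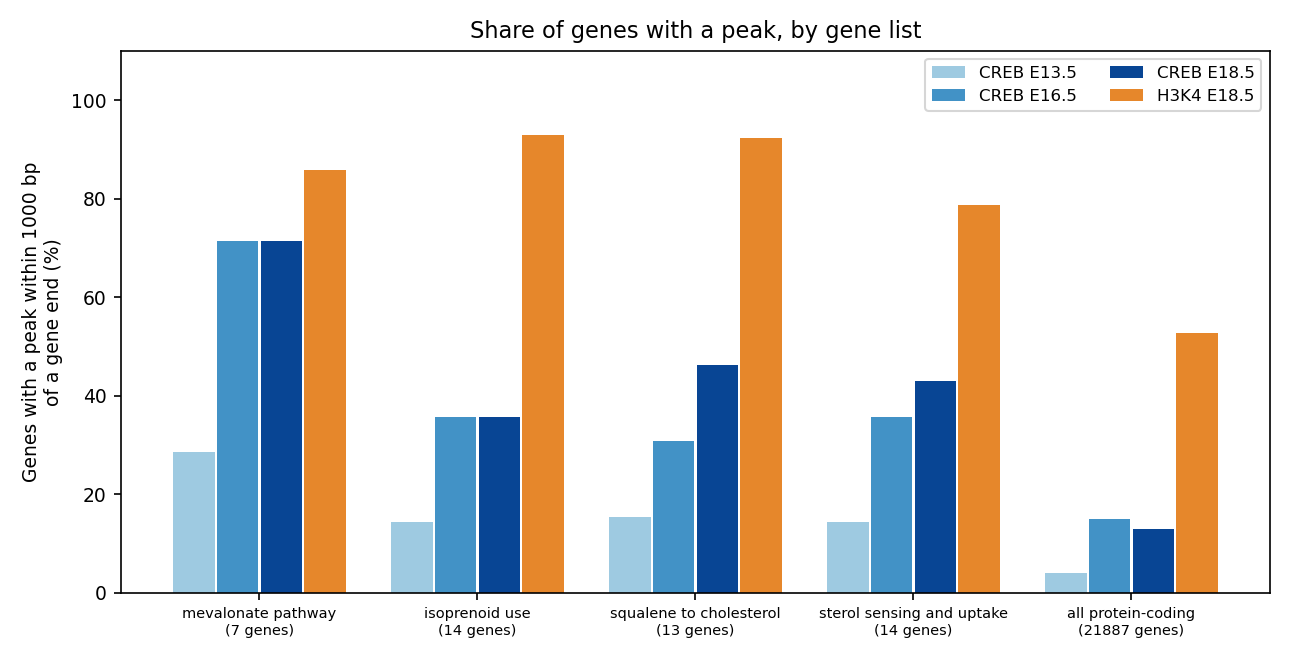
Percentage of genes with a peak within 1000 bp of an outer gene end, by gene list and peak list. The bars of the mevalonate genes are 28.6%, 71.4% and 71.4% for the CREB lists in order of stage and 85.7% for H3K4, and those of all protein-coding genes are 3.94%, 14.9%, 12.9% and 52.7%; with 7 genes, 1 gene moves a bar of the first list by 14.3 percentage points.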

How the data were processed

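CUT&RUN libraries were made from 100000 dissociated male gonadal cells each, per the labels, and samples were grouped by the antibody and stage in their titles. Per the submitters' processing notes, the tools included MACS2 (no version), Bowtie2 2.5.2 and Trim Galore 0.6.10, and coordinates follow mm10; settings and the control are not stated in those notes. The deposited files are peak lists with chromosome, start and end as the only values; depth is unknown, and no test, p-value or interval could be had.

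Peaks were joined to gene coordinates of RefSeq GRCm38.p6 by overlap of at least 1 bp with the body or 3000 bp outside it. Start sites and windows came from the RefSeq promoter table of that build. Positions are 1-based, and each distance is measured from a peak's midpoint unless an edge is named. Percentages of protein-coding genes are backgrounds, not tests. All 7 genes are described, with neighbours that share a peak and, of the other pathway genes, those with CREB at all 3 stages; 1 such gene is not reported here. Genes, lists and motifs were chosen with earlier results of these data known. The alternatives were other windows, widths, overlaps and first peaks only; distance to listed starts was added after seeing the data. Python 3.11.15, numpy 2.4.6, pandas 2.3.3 and matplotlib 3.10.9 were used, and the overlap code was tested on simulated peaks.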

Additional observations from a re-analysis of the deposited data

How the results depend on the processing

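There were 47 counts and distances, of which the motif counts had no alternative. Of 88 alternative values, 84 stayed within 1.5 times the reported count or, for distances, within the peak's own extent. For distances this was fixed in advance, because the edge of a peak always lies within its extent. At Mvd the E16.5 distance went from 471 bp at the midpoint to 156 bp at the nearest edge. For counts, the limit also passed a change from 3 to 2 or from 6 to 4. Asking for reciprocal overlap of 50% left 0 genes with a CREB peak shared between E13.5 and E16.5 and 0 between E16.5 and E18.5, against 3 and 5 as reported, because peaks of 630 bp cannot overlap peaks of 150 or 160 bp in that measure. It kept 3 for E13.5 and E18.5. Asking for direct overlap with H3K4 in place of midpoints within 1000 bp left 0 genes at E13.5 and 1 at E18.5, against 3 and 6, and 5 of 6 at E16.5, where peaks are wider. Of all CREB peaks, 32.1% (E13.5), 66.8% (E16.5) and 33.1% (E18.5) overlapped H3K4 directly. The count of genes with CREB ranged from 2 to 3 at E13.5, from 4 to 6 at E16.5 and from 4 to 6 at E18.5. No paired analysis was possible because each antibody and stage has 1 library. The unknown depth limits every statement on a missing peak, and the absence of scores limits any ranking.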

Other observations

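Among 7 paralogs and related enzymes, CREB peaks lay within 1000 bp of a gene end at 1 gene in E13.5 gonads, 1 in E16.5 gonads and 2 in E18.5 gonads, and H3K4 peaks at 6. By the same rule 3.94%, 14.9% and 12.9% of protein-coding genes had CREB in order of stage and 52.7% had H3K4. Among these 7 genes the share at E16.5, 14.3%, is near that of all genes. The list is not complete, so these shares hold only for the 7 genes counted. Acaa1a, which encodes a peroxisomal thiolase, had CREB at all 3 stages, with midpoints 116 bp (E13.5), 73 bp (E16.5) and 89 bp (E18.5) upstream of its start.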
